A study of Mus musculus with 24 samples.

Results

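The genes described here are the small heat shock protein genes of muscle and the gene of their partner co-chaperone, namely Hspb1, Hspb2, Cryab, Hspb3, Hspb6, Hspb7, Hspb8 and Bag3. They were chosen by symbol, 8 of the 18669 genes in the count table. No measured value entered that rule, but earlier results of these data were known when it was made. RNA of quadriceps femoris muscle was sequenced from 24 mice on a CBA x C57BL/6 F1 background, 2 mice in each of 12 groups formed by 3 genotypes and 4 treatments. Wild type mice, R6/2 mice (a model of Huntington's disease that carries a transgene of exon 1 of the mutant huntingtin gene) and Hsf1-/- mice (which lack functional heat shock factor 1, the main transcription factor of the heat shock response) were either heat shocked (HS), given the matching control procedure, given HSP990 or given vehicle. For HS, mice under isoflurane anaesthesia were warmed with a heating pad at 41.5 °C ± 0.2 for 15 min, and controls were held in the same way at 36.9 °C ± 0.2 for 21 min. HSP990, an inhibitor of the chaperone HSP90, was given by mouth at 12 mg/kg in 0.2% methyl cellulose and 0.9% saline, while the labels of the vehicle mice name only 0.9% saline. Muscle was taken 4 h after treatment. Wild type and R6/2 mice were 12 weeks old, but Hsf1-/- mice were 10 weeks old in the HS experiment and 8 weeks old in the HSP990 experiment, so in every comparison of Hsf1-/- with wild type mice genotype and age cannot be told apart.

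Small heat shock proteins share an alpha-crystallin domain and bind unfolding proteins without using ATP, which keeps these clients soluble until other chaperones take them over. BAG3 links HSP70 to the small heat shock protein HSPB8, and in muscle this complex, with the ubiquitin ligase STUB1 (CHIP), sends damaged Z-disc proteins such as filamin C to autophagy. HSF1 switches on heat shock genes by binding heat shock elements, which are inverted repeats of GAA and TTC units, and inhibition of HSP90 activates HSF1 without heat.

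On the mm9 build, Bag3 lies on chr7:135667097-135690491 (plus strand), Hspb8 on chr5:116858500-116872873 (minus), Hspb1 on chr5:136363789-136365433 (plus), Hspb6 on chr7:31337197-31340462 (plus), Hspb7 on chr4:140976694-140981226 (plus) and Hspb3, a gene of 1 exon, on chr13:114453104-114453884 (minus). Cryab (chr9:50560863-50564738, plus strand) and Hspb2 (chr9:50559177-50560459, minus strand) stand head to head with a gap of 403 bases. All 8 are annotated as protein-coding, and the counts are of reads on whole genes. Hspb2 was listed at 0 counts in all 24 libraries, where 3 counts would have been 0.0611 to 0.15 CPM (a gene's share of its library, with library totals corrected for composition by TMM). Cryab beside it had at least 4152 counts in every library. Why Hspb2 was at 0 was not tested, and the other 7 genes could be tested. The transcript of Hspb1 matches a second locus, chr13:45173739-45174537, over 99.7% of its length at 99.4% identity, so its counts are uncertain. Exons of Hspb6 overlap those of Lin37 and of BC053749 on the opposite strand. BC053749 is not in the count table, so its level is not known. Lin37 itself was at 2.84 to 8.82 CPM in the 24 libraries, against 443.5 to 2247 CPM for Hspb6, and whether the counting used strand is not given in the sources used here.

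The promoters of 6 of the 8 genes, 7 entries in all, are in the RefSeq table on GRCm38.p6, each running from 250 bases before to 50 bases after the annotated start. Hspb2 and Cryab have no entry. The entries were searched for 8-letter forms of a heat shock element, GAANNTTC and TTCNNGAA, each of which is its own reverse complement, for the 3-unit forms made by adding NNGAA to the former or NNTTC to the latter, and for TATAAA on both strands. GAANNTTC was found for 5 of the 6 genes, against 9.04% of all 27025 genes in the table, TTCNNGAA (9.6% of genes) and the 3-unit forms (0.662%) for 0 of the 6, and TATAAA for 2, Hspb3 and Hspb6 (15.7%). The 4 promoters printed here are those of the genes that have an entry and were called in at least 1 comparison described further on. Capitals mark the matches to GAANNTTC and, in Hspb6, also TATAAA.
Bag3 (chr7:128523333-128523632, plus strand): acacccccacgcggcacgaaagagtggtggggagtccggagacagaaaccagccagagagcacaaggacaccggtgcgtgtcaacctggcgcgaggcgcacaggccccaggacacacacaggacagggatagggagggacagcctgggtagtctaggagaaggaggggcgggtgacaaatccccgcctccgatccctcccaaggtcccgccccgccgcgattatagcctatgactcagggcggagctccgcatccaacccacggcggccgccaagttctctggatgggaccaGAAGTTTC
Hspb8 (chr5:116422815-116423114, minus strand): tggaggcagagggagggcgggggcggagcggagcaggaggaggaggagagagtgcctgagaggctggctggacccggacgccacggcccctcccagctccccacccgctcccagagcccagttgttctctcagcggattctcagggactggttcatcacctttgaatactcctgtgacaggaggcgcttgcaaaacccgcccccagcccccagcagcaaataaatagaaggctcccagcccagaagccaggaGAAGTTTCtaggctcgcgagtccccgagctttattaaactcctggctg
Hspb1 (chr5:135887669-135887968, plus strand): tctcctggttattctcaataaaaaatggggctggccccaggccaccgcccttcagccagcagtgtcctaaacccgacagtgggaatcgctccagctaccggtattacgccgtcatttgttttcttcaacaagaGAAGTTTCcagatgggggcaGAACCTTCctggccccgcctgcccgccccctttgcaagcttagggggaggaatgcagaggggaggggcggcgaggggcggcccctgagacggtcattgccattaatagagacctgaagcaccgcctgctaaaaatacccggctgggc
Hspb6, second entry (chr7:30553051-30553350, plus strand): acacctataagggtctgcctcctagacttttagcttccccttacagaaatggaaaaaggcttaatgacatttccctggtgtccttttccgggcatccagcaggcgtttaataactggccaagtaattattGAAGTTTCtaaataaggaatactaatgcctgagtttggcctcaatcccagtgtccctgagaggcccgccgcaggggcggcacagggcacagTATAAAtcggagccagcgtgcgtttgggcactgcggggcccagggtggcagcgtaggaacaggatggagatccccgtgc
Counted from the annotated start as base 1, the match begins 117 and 97 bases before the start in Hspb1, 120 bases before it in this entry of Hspb6, at base 3 in Hspb8 and at base 43 in Bag3, where it ends the window. In all 4 of these promoters 1 match reads GAAGTTTC, 8 letters that were looked up on both strands after the search and occur in the promoters of 1.35% of genes. The match in Hspb3, 224 bases before the start, reads GAATTTTC, and the entry of Hspb7 and the other entry of Hspb6 hold 0 matches to the letters searched. These are matches of letters, not measured binding.

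The 24 libraries held 22450177 to 46599238 counts. Hsf1 was at 52.94 to 68.55 CPM in wild type, 45.28 to 53.71 in R6/2 and 21.08 to 28.96 in Hsf1-/- mice, lowered but not absent in the last (untreated log2 fold change -1.26, adjusted p = 4.33e-07, where every adjusted p is, unless another tool is named, from the quasi-likelihood test of edgeR after Benjamini-Hochberg correction over all genes tested, and called means below 0.05). No marker of skeletal muscle on a list of 8 was at 0 in any library, but the summed level of the list was 47650 to 94090 CPM in R6/2 mice and at least 198300 CPM in every other group. The R6/2 libraries also stood apart in their TMM factors, 1.19 to 1.40 against 0.808 to 0.954 in the others. The sum of 4 Y-linked genes was at most 0.0881 CPM in wild type and R6/2 mice of the HS experiment and 162.6 to 229.9 CPM in all other mice, which include all 8 Hsf1-/- mice. In whole muscle, fewer cells of a type and less RNA per cell cannot be told apart.

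In untreated wild type muscle (control and vehicle mice, n = 4) the order of levels per kilobase of exon was Cryab, Hspb6, Hspb8, Hspb7, Bag3, Hspb3 and Hspb1. Cryab, or alphaB-crystallin, stood at 650.3 ± 120 CPM per kb (mean ± SD) and Hspb6, or HSP20, at 644.9 ± 79.1, and their ranges overlapped. For Hspb6 the exon union used here is 2299 bases long and its longest coding transcript 1363, whereas both are 1185 for Cryab. By transcript length Hspb6 would stand higher, so its place among these genes, here and after HSP990, depends on the length used. Hspb8 was at 329.3 ± 72.4 CPM per kb, Hspb7 at 197.4 ± 61.0 and Bag3 at 109.5 ± 21.6, each with a range that did not reach the next. Hspb3 (50.04 ± 10.1) and Hspb1 (36.11 ± 12.8), whose ranges overlapped, were the lowest. After HSP990 the order in wild type mice (n = 2) was Cryab (1574 ± 218), Hspb8 (918.7 ± 20.6), Hspb6 (681.1 ± 6.15), Bag3 (646.1 ± 4.38), Hspb1 (471.0 ± 68.9), Hspb7 (242.8 ± 38.3) and Hspb3 (47.16 ± 5.43), with no overlap between neighbours. The summed level of the genes was 3072 to 4496 CPM in the 4 untreated wild type mice, 6328 and 7734 after HS and 7976 and 8206 after HSP990. In R6/2 mice it was 2264 to 3884 CPM untreated, 2884 and 3115 after HS, and 2836 and 4567 after HSP990, ranges that overlap.

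**Figure D1:**
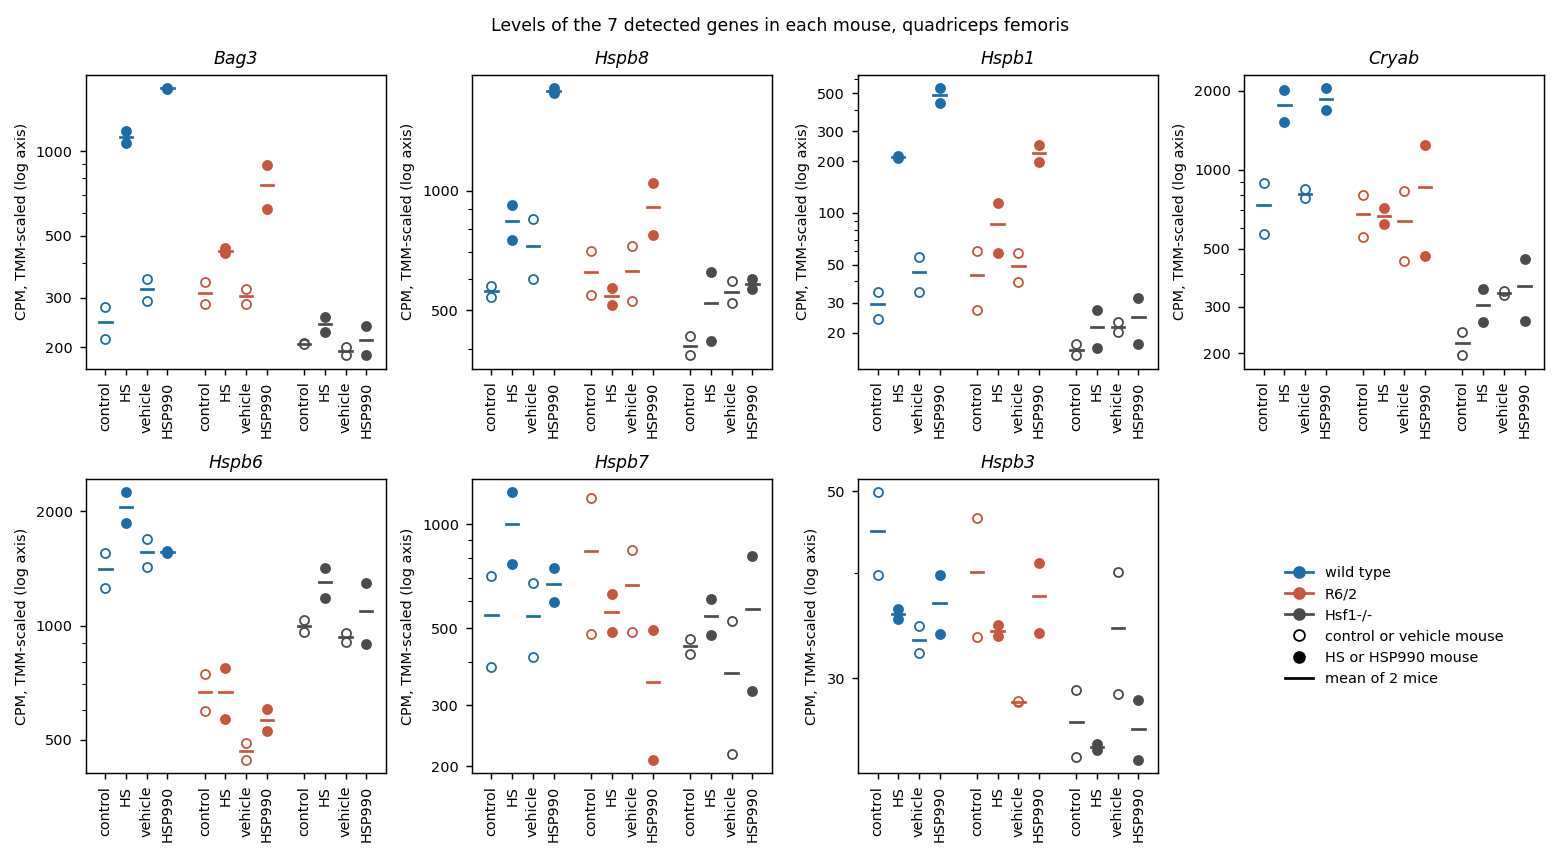
Level of each of the 7 genes in every mouse, in CPM after TMM scaling on a log axis, by genotype (colour) and treatment (filled points are HS or HSP990 mice, open points control or vehicle mice, horizontal lines the mean of 2 mice). Bag3 and Hspb1 in treated wild type mice lie above all untreated mice, whereas the 4 Hsf1-/- groups of each lie close together, between 187.2 and 256.4 CPM for Bag3 and between 14.79 and 31.97 CPM for Hspb1.

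Each treatment was first compared with its own control within a genotype. After HS in wild type mice Bag3 and Hspb1 rose, 2 of the 7 genes tested, where 2.06% of all 13754 genes tested were called, and the median log2 fold change was 0.87 over the 7 genes and -0.01 over all genes. After HSP990 in wild type mice Bag3, Hspb1 and Hspb8 rose, 3 of 7 beside 1.85% of all genes (medians 1.20 and -0.001). In R6/2 mice 0 of 7 were called after HS, where 0.0436% of all genes were, and Bag3 and Hspb1, 2 of 7, rose after HSP990, where 1.43% were. In Hsf1-/- mice 0 of 7 were called after HS, beside 0.00727% of all genes, and 0 of 7 after HSP990, beside 0.218%. At an unadjusted p below 0.05, edgeR's test gave 2 of the 7 genes after HS in R6/2 mice, beside 1117 of all 13754 genes. In Hsf1-/- mice it gave 0 after HS and 1 after HSP990, beside 1211 and 1304 of all genes. DESeq2 called 0 in each of these 3 comparisons. In wild type mice DESeq2 added Cryab to the called genes after HS and after HSP990.

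**Figure D2:**
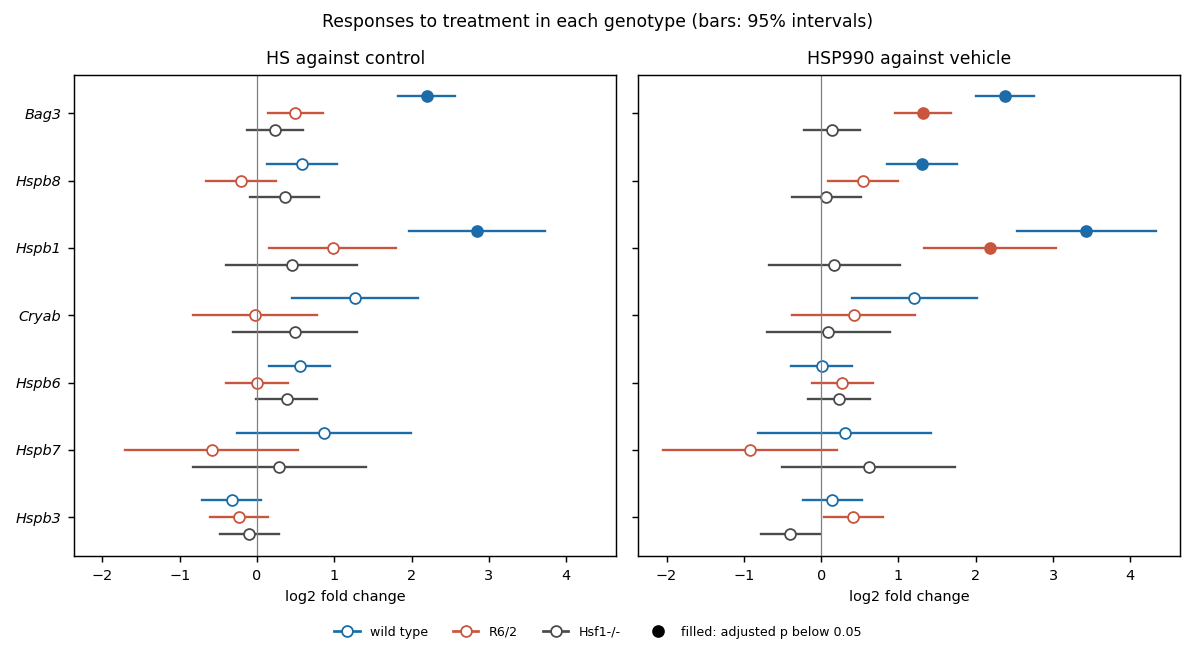
Log2 fold change of each gene after HS (left) and after HSP990 (right) in wild type, R6/2 and Hsf1-/- mice, with 95% intervals as bars and filled points where the adjusted p was below 0.05. The filled points are those of Bag3 and Hspb1 in wild type mice after both treatments and in R6/2 mice after HSP990, and of Hspb8 in wild type mice after HSP990.

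Bag3, the co-chaperone that joins HSP70 to HSPB8, stood at 214.5 and 277.6 CPM in wild type control mice and at 1074 and 1178 CPM after HS. Both HS mice lay far above both controls, a log2 fold change of 2.19 (SE 0.18, 4.58-fold, adjusted p = 2.70e-06). After HSP990 Bag3 went from 350.6 and 292.5 CPM in the vehicle mice to 1682 and 1666 CPM, a log2 fold change of 2.38 (SE 0.18, 5.21-fold, adjusted p = 6.00e-07), and the treated mice differed by less than the vehicle mice did. In R6/2 mice Bag3 was at 341.5 and 285.5 CPM in controls and at 450.3 and 432.5 CPM after HS, groups that did not overlap but whose difference was not called (log2 fold change 0.49, 95% interval 0.14 to 0.85, adjusted p = 0.381). After HSP990 it rose in R6/2 mice from 322.2 and 286.3 CPM to 621.7 and 892.6 CPM, a log2 fold change of 1.32 (SE 0.17, adjusted p = 0.000427), which was not called in a fit of these groups alone (adjusted p = 0.121). In Hsf1-/- mice Bag3 was at 206.5 and 205.4 CPM in controls, 256.4 and 226.7 after HS, 187.2 and 200 in vehicle mice and 188.1 and 238.1 after HSP990. The log2 fold changes there were 0.23 (95% interval -0.13 to 0.59) and 0.14 (-0.22 to 0.50), intervals that end below those of wild type mice, 1.82 to 2.57 after HS and 2.00 to 2.76 after HSP990. Of the 7 genes Bag3 varied least between the 2 mice of a group, by a median ratio of 1.13. Ordered by mean, its 12 groups ran from HSP990 and HS in wild type mice (1674 ± 11.3 and 1126 ± 73.5 CPM) through HSP990 and HS in R6/2 mice (757.2 ± 192 and 441.4 ± 12.6), each apart from the next, to the untreated wild type and R6/2 groups (246.1 to 321.6 CPM) and the 4 Hsf1-/- groups (193.6 to 241.5), among which most neighbours overlapped.

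Hspb8, the small heat shock protein that binds BAG3, was at 850.7 and 599.4 CPM in wild type vehicle mice and at 1820 and 1763 CPM after HSP990. This was a log2 fold change of 1.31 (SE 0.22, 2.47-fold, adjusted p = 0.00313), and both treated mice lay above every other mouse of the study. Without wild type vehicle replicate 2 the change was 1.07 and was not called (adjusted p = 0.124). After HS the wild type mice were at 922.3 and 752.7 CPM and the controls at 577.2 and 540.9, a difference in the same direction that was not called (log2 fold change 0.58, 95% interval 0.13 to 1.04, adjusted p = 0.223) except in a fit of only the groups compared (0.59, adjusted p = 0.0351). In R6/2 mice the level was 706.9 and 545.2 CPM in controls, 516.4 and 567.4 after HS, 726.2 and 528.5 with vehicle and 775.1 and 1048 after HSP990. The last 2 groups did not overlap, but the log2 fold change of 0.54 missed the threshold (adjusted p = 0.387). In Hsf1-/- mice Hspb8 ranged from 384.6 to 623.5 CPM over all 8 mice, with log2 fold changes of 0.36 after HS (adjusted p = 0.728) and 0.07 after HSP990 (adjusted p = 0.952).

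Hspb1, which encodes HSP25 (HSP27 in humans), was the least abundant of the 7 genes per kilobase in untreated wild type muscle and had the largest log2 fold changes of the set in wild type mice. It went from 23.97 and 34.82 CPM in controls to 214.2 and 208.6 after HS, a log2 fold change of 2.85 (SE 0.42, 7.18-fold, adjusted p = 0.00132). Without wild type control replicate 1 the change was 2.60 and was not called (adjusted p = 0.0635). After HSP990 Hspb1 rose from 55.59 and 34.55 CPM to 435.3 and 535.8, by 3.43 on the log2 scale (SE 0.43, 10.8-fold, adjusted p = 0.000168). The R6/2 mice overlapped after HS, with 60.32 and 27.25 CPM in controls and 114.3 and 58.12 in HS mice (log2 fold change 0.98, adjusted p = 0.484). After HSP990 they rose from 58.45 and 39.58 CPM to 198.1 and 249.0 (log2 fold change 2.19, SE 0.40, adjusted p = 0.00956). That call was lost in a fit of these groups alone (adjusted p = 0.0673), without R6/2 HSP990 replicate 2 (2.01, adjusted p = 0.0719) and without R6/2 vehicle replicate 2 (1.94, adjusted p = 0.173). The Hsf1-/- mice stayed within 14.79 to 31.97 CPM in all 4 groups, with log2 fold changes of 0.45 after HS (95% interval -0.41 to 1.3) and 0.17 after HSP990 (-0.67 to 1.01). Whether reads of the near-identical locus on chromosome 13 enter these counts, or reads of Hspb1 are lost to it, was not tested. The place of Hspb1 as the least abundant gene shares this limit.

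Cryab, alphaB-crystallin, a chaperone of desmin and of the sarcomere, was at 569.1 and 893.0 CPM in wild type controls and at 2004 and 1514 CPM after HS. Vehicle mice were at 841.2 and 778.9 CPM and HSP990 mice at 1682 and 2048. The treated mice lay above the untreated ones in both experiments, but edgeR did not call the differences (log2 fold change 1.27, SE 0.38, adjusted p = 0.115 after HS, and 1.20, SE 0.38, adjusted p = 0.140 after HSP990). DESeq2 called both (adjusted p = 0.0171 and 0.0323), as did a fit of only the groups compared (adjusted p = 0.0167 and 0.0201). In R6/2 mice the 2 HSP990 mice differed by 2.64-fold, at 470.7 and 1241 CPM, and the groups overlapped after both treatments (log2 fold change -0.03 after HS, 95% interval -0.82 to 0.77, and 0.42 after HSP990, -0.38 to 1.22). In Hsf1-/- mice the level was 241.1 and 196.2 CPM in controls, 350.1 and 262.7 after HS, 333.4 and 343.6 with vehicle and 266.1 and 456.9 after HSP990 (log2 fold changes 0.49, adjusted p = 0.810, and 0.09, adjusted p = 0.960).

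Hspb6 (HSP20), Hspb7 (cvHSP, enriched in heart and skeletal muscle) and Hspb3, whose product pairs with HSPB2, were not called after any treatment in any genotype. Hspb6 in wild type mice was at 1260 and 1552 CPM in controls and 2247 and 1869 after HS (log2 fold change 0.55, 95% interval 0.15 to 0.95, adjusted p = 0.184), and at 1688 and 1430 with vehicle and 1576 and 1556 after HSP990 (0.01, -0.39 to 0.40). Hspb7 was the most variable gene between mice, with a median ratio of 1.68 between the 2 mice of a group and 1193 against 481.6 CPM in R6/2 controls. Its largest response, 0.92 lower on the log2 scale after HSP990 in R6/2 mice (log2 fold change -0.92, 95% interval -2.05 to 0.20, adjusted p = 0.666), was within that spread. Hspb3 ranged only from 24.00 to 49.90 CPM over all 24 mice, and its 6 responses lay between -0.40 and 0.42 on the log2 scale. In its order of 12 groups 10 of 11 neighbours overlapped, as they did for Hspb7 and Hspb8.

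Whether the response differed between genotypes was tested as a difference of log2 fold changes, in which R6/2 and Hsf1-/- mice are both set against the same wild type mice. For HS, Bag3 alone was called in R6/2 against wild type mice, 1 of 7 genes beside 0.0727% of all genes, and Bag3 alone in Hsf1-/- against wild type mice, 1 of 7 beside 0.16%. For HSP990, 0 of 7 were called in R6/2 against wild type mice, where 0% of all genes were, and Hspb1 and Bag3, 2 of 7, in Hsf1-/- against wild type mice, beside 0.422%. In the R6/2 comparison for HSP990, 3 of the 7 genes (and 981 of all genes) had an unadjusted p below 0.05, and DESeq2 called Bag3 (log2 difference -1.07, adjusted p = 0.0243).

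**Figure D3:**
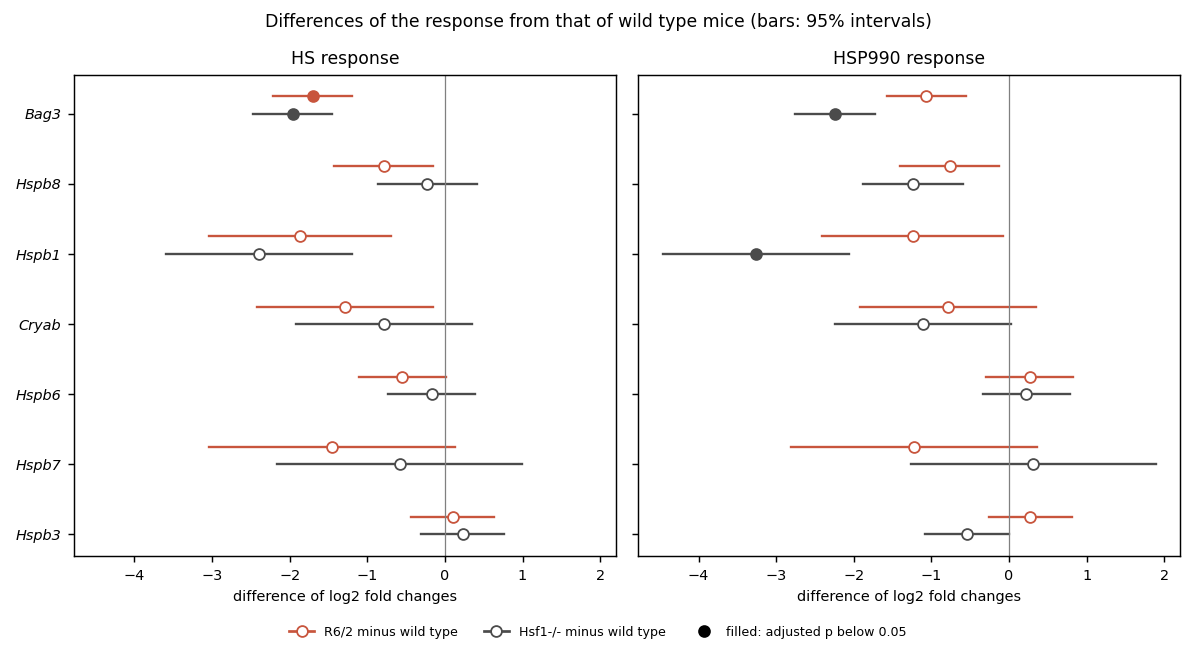
Response of R6/2 or Hsf1-/- mice minus that of wild type mice after HS (left) and HSP990 (right), as a difference of log2 fold changes with 95% intervals, filled where the adjusted p was below 0.05. The filled points, Bag3 after HS in both genotypes and Bag3 and Hspb1 after HSP990 in Hsf1-/- mice, lie between -3.26 and -1.70.

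The Bag3 response to HS was smaller in R6/2 than in wild type mice (log2 difference -1.70, SE 0.24, adjusted p = 0.00942), the smallest p among all genes tested in that comparison. It was not called in a fit of only the groups compared (adjusted p = 0.0990), without R6/2 control replicate 1 (-1.57, adjusted p = 0.0662), without R6/2 HS replicate 1 (-1.73, adjusted p = 0.0662) or without wild type control replicate 1 (-1.53, adjusted p = 0.0814). In Hsf1-/- against wild type mice the difference for Bag3 was -1.96 after HS (SE 0.24, adjusted p = 0.000807) and -2.24 after HSP990 (SE 0.24, adjusted p = 8.18e-05), and both were called without each mouse in turn. For HS these Hsf1-/- and wild type mice also differed in Y-linked transcripts, so genotype, age and that difference cannot be told apart. After HSP990 in R6/2 mice the difference for Bag3 was -1.06 (95% interval -1.57 to -0.56, adjusted p = 0.299). The Hspb1 response to HSP990 was smaller in Hsf1-/- mice (log2 difference -3.26, SE 0.57, adjusted p = 0.0101), a call lost in a fit of only the groups compared (adjusted p = 0.0599), without Hsf1-/- HSP990 replicate 1 (-2.86, adjusted p = 0.0795) and without wild type vehicle replicate 2 (-2.96, adjusted p = 0.0974). Its differences after HS were -1.87 in R6/2 (95% interval -3.04 to -0.69, adjusted p = 0.683) and -2.40 in Hsf1-/- mice (-3.60 to -1.20, adjusted p = 0.223), the latter called by DESeq2 (adjusted p = 0.00324). For Hspb8 the differences after HSP990 were -0.77 in R6/2 (adjusted p = 0.614) and -1.24 in Hsf1-/- mice (adjusted p = 0.135, and 0.0195 by DESeq2). For Cryab the 4 differences lay between -1.29 and -0.78, none called, and their intervals were wide (for HS in R6/2 mice -2.43 to -0.16, adjusted p = 0.989).

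HS and HSP990 were also compared with each other, as the difference between the HSP990 response and the HS response in the same genotype. Called were 0 of 7 in wild type mice, beside 2.38% of all genes, and 0 of 7 in R6/2 mice, beside 1.63%. At an unadjusted p below 0.05 edgeR's test gave 1 of 7 in wild type mice, beside 2050 of all 13754 genes, and 4 of 7 in R6/2 mice, beside 1448. DESeq2 called 0 and 1 of the 7. Y-linked transcripts also set the mice of both experiments apart, and this cannot be told apart from the difference between treatments. For Bag3 the log2 difference was 0.19 in wild type mice (95% interval -0.32 to 0.69, adjusted p = 0.776) and 0.82 in R6/2 mice (0.32 to 1.33, adjusted p = 0.115). The gene that DESeq2 called was Bag3 (0.82, adjusted p = 0.0483), and without R6/2 HSP990 replicate 1 it was also called by edgeR (1.06, adjusted p = 0.0347). For Hspb8 the difference was 0.72 in wild type (0.08 to 1.36, adjusted p = 0.262) and 0.75 in R6/2 mice (0.11 to 1.39, adjusted p = 0.341), and for Hspb1 it was 0.59 (-0.58 to 1.75) and 1.21 (0.05 to 2.37).

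Untreated mice of the genotypes were compared over control and vehicle mice together, 4 against 4. In R6/2 mice 1 of the 7 genes, Hspb6, was called, lower, where 30.5% of all genes were called. In Hsf1-/- mice 2 of 7, Cryab and Hspb6, were called, both lower, where 0.974% of all genes were, and all 7 genes had a lower mean there, with a median log2 fold change of -0.49 (6.74e-05 over all genes).

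**Figure D4:**
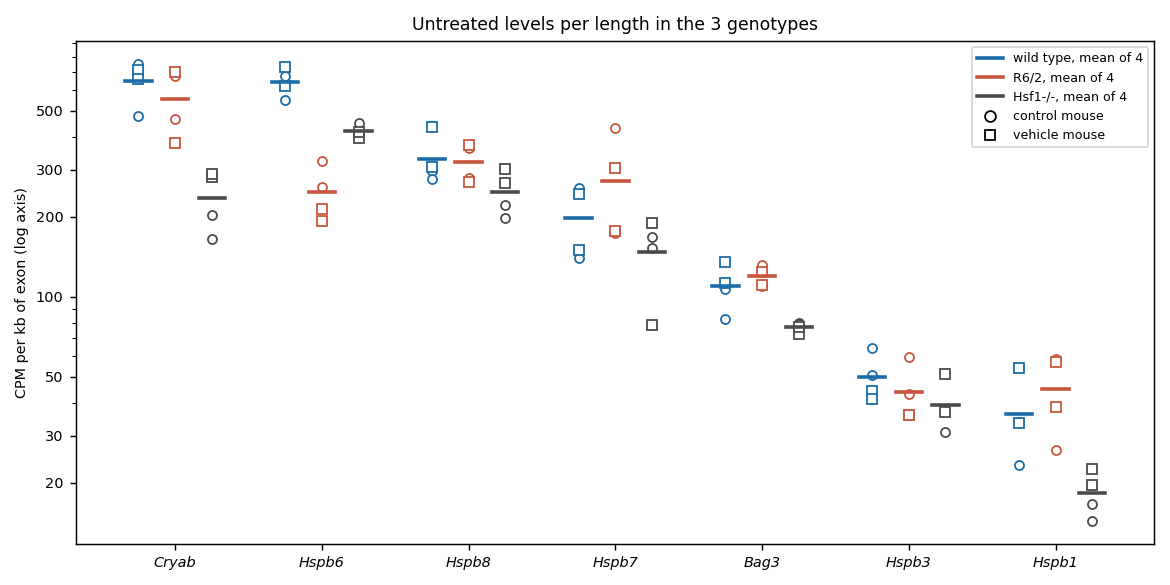
Level of each gene per kilobase of exon in the untreated mice of the 3 genotypes, on a log axis, with circles for control mice, squares for vehicle mice and horizontal lines for the mean of 4 mice. Hspb6 in R6/2 mice (192.9 to 323.8 CPM per kb) and Cryab in Hsf1-/- mice (165.6 to 290.0) lie below every wild type mouse.

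Hspb6 in R6/2 mice was at 744.5 and 595.9 CPM in controls and 492.1 and 443.5 with vehicle, below all 4 untreated wild type mice (1260 to 1688 CPM). The log2 fold change was -1.40 (SE 0.14, adjusted p = 1.92e-06), called under every alternative tried, and -0.79 when libraries were scaled by their totals alone. That scaling moved the median of all genes in this comparison from 0.05 to 0.66 and called 6 of the 7 genes, with Hspb6 lower and Hspb1, Hspb3, Hspb7, Hspb8 and Bag3 higher, although their values of 0.40 to 1.07 lay around that median. The summed levels of skeletal muscle and fast fibre markers moved with this result. Of these lists, 7 of 8 and 8 of 8 genes were lower in R6/2 mice (median log2 fold changes -1.89 and -1.81, none of the genes at 0 in any mouse), and their part in the fall of Hspb6 was not tested. Bag3 (log2 fold change 0.13, 95% interval -0.12 to 0.39), Hspb8 (-0.02, -0.34 to 0.30) and Cryab (-0.22, -0.79 to 0.34) were not called.

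Cryab in Hsf1-/- mice was at 241.1 and 196.2 CPM in controls and 333.4 and 343.6 with vehicle, below all 4 untreated wild type mice (569.1 to 893.0 CPM). The log2 fold change was -1.5 (SE 0.27, 0.354-fold, adjusted p = 0.0145). The call was lost among vehicle mice alone (-1.26, adjusted p = 0.320) and when any of 6 single mice was left out (adjusted p between 0.0561 and 0.0841, without each Hsf1-/- mouse, wild type control replicate 2 or wild type vehicle replicate 1), while the values stayed between -1.58 and -1.32 in those fits. The summed level of 8 slow fibre markers was higher in Hsf1-/- than in wild type control mice (598.8 and 754.5 against 272.5 and 327.0 CPM) and lower in vehicle mice (96.27 and 122.4 against 411.7 and 566.8). With control and vehicle mice together, 0 of these 8 were called, beside 0.974% of all genes. By edgeR's test 0 had an unadjusted p below 0.05, beside 1991 of all 13754 genes. That comparison averages the 2 opposite differences, so it cannot show whether these markers differed between the genotypes. The part of slow fibre markers in the level of Cryab was not tested. Hspb6 in Hsf1-/- mice was at 961.2, 1037, 908.0 and 956.7 CPM, also below all 4 wild type mice, with a log2 fold change of -0.62 (SE 0.13, adjusted p = 0.0383) that was not called in control or vehicle mice alone (-0.49, adjusted p = 0.176, and -0.74, adjusted p = 0.197) or without any 1 of the 8 mice (-0.69 to -0.54, adjusted p of 0.0611 to 0.182). Bag3 was at 206.5, 205.4, 187.2 and 200 CPM in Hsf1-/- mice and at 214.5 or more in wild type mice, a difference just outside the threshold (log2 fold change -0.49, adjusted p = 0.0633) that DESeq2 called (adjusted p = 0.0120), as it did for Hspb1 (-0.96, adjusted p = 0.0198, against 0.126 by edgeR). Hspb3 was called, lower, among control mice alone (-0.75, adjusted p = 0.0445) and not over all 8 mice (-0.35, adjusted p = 0.213). Besides age, the Hsf1-/- control mice differed from wild type controls in Y-linked transcripts.

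Over the 24 libraries, the genes whose log2 levels were most like those of Bag3 were Dnaja1 (Pearson r 0.97), Hspa1a (0.97) and Hsp90aa1 (0.97), and those most like Hspb1 were Hspa1a (0.97), Hspa1b (0.97) and Hsp90aa1 (0.97), all cytosolic chaperones or co-chaperones, among 11095 genes of at least 1 CPM on average. Bag3 and Hspb1 were as alike to each other (r 0.97, and 0.75 for deviations from the group means). Hspb8 was most like Dnajb1 (0.88), Ccdc117 (0.87) and Hmox1 (0.87), and Cryab most like Snx3 (0.88), Dnaja4 (0.88) and Ahsa1 (0.87). Among the genes most like Hspb6 were Hspa9 (0.95) and Gfm1 (0.93), which encode mitochondrial proteins. The r of Hspb6 with Bag3 was 0.26, and 0.55 for deviations from the group means. The closest genes to Hspb7 were Lmcd1 (0.83), Itga5 (0.75) and Myom3 (0.73), and those to Hspb3 Rnf181 (0.80), Rasa4 (0.78) and Evi2b (0.76). These correlations are descriptions, since the libraries share genotypes, treatments and depth.

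The proteins that work with BAG3 were read from a list of 27 genes, 24 of them tested, with HSP70, ubiquitin, autophagy and filamin genes. After HS 0 of the 24 were called in wild type (4 at an unadjusted p below 0.05, edgeR), R6/2 (2) and Hsf1-/- mice (3), with medians of 0.15, -0.11 and 0.18. Of all genes 2.06%, 0.0436% and 0.00727% were called there, so 0 of 24 is near the share of all genes. Of all 13754 genes, 1627, 1117 and 1211 had an unadjusted p below 0.05 there. Hspa8, the constitutive HSP70 partner of BAG3, was at 32.51 and 42.47 CPM in wild type controls and at 221.4 and 225.3 after HS, yet its log2 fold change of 2.57 missed the threshold (adjusted p = 0.164). Flnc, the filamin that BAG3 sends to autophagy, was at 1071 and 1740 CPM in controls and 2150 and 3033 after HS (log2 fold change 0.88, adjusted p = 0.479). Hspa8 and Flnc are named for their roles and were picked after their values were seen, as was Stub1 in what follows. After HSP990 2 of 24 rose in wild type mice, beside 1.85% of all genes, among them Amotl2, an angiomotin-like protein, from 26.61 and 41.22 to 60.32 and 76.71 CPM (log2 fold change 1.01, adjusted p = 0.0426). In R6/2 and Hsf1-/- mice 0 of 24 were called, beside 1.43% and 0.218% of all genes. At an unadjusted p below 0.05 were 1 and 3 of them, beside 1306 and 1304 of all 13754 genes. In untreated R6/2 mice 7 of the 24 were higher and 1 lower, where 30.5% of all genes were called, so this count is near the share of all genes. The most changed were Amotl2 (1.08), Yap1 (0.64), Map1lc3a (0.43) and Vps11 (0.38), and Stub1 was lower (-0.30, adjusted p = 0.00199). In untreated Hsf1-/- mice 0 of 24 were called, beside 0.974% of all genes, and 5 had an unadjusted p below 0.05, beside 1991 of all 13754 genes.

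The other 5 BAG family genes tested were not called in any of the 14 comparisons, in which 0% to 30.5% of all genes were called. At most 2 had an unadjusted p below 0.05 in any comparison (edgeR), and the most extreme of their adjusted p values was 0.0950. Of all 13754 genes, 511 to 5577 had an unadjusted p below 0.05 in the 14 comparisons. In those of a treatment with its control this was 1117 to 1816. Of 4 genes listed as other small heat shock protein genes, 3 were in the table. Hspb11, the only 1 tested, was not called in any of the 14 comparisons, and whether its product has the alpha-crystallin domain was not checked. Of 14 Z-disc and intermediate filament genes, 0 were called after HS or HSP990 in any genotype, beside 0.00727% to 2.06% of all genes (1 to 3 of the 14 with an unadjusted p below 0.05). In untreated R6/2 mice 9 were lower, where 30.5% of all genes were called, among them Actn3 (-1.81), Ttn (-1.54), Myoz1 (-1.46) and Tcap (-1.36). Of 10 other heat-inducible chaperones, 10 rose in wild type mice after HS (2.06% of all genes called) and 10 after HSP990 (1.85%). Of the same 10, 3 rose in R6/2 mice after HS (0.0436%) and 10 after HSP990 (1.43%), and in Hsf1-/- mice 0 were called after HS (0.00727%) and 0 after HSP990 (0.218%), with 1 and 1 at an unadjusted p below 0.05. In untreated Hsf1-/- mice 7 of these 10 were lower (0.974%). Of 52 marker entries on 9 lists of fibre types and other cell types, 0 were called after either treatment in any genotype, beside 0.00727% to 2.06% of all genes. An unadjusted p below 0.05 was found for 2 to 13 entries, the 13 after HS in Hsf1-/- mice. Tnnt3 and Myh4 are on both the fast fibre and the skeletal muscle list and were counted on each. Earlier results of these libraries were known when the lists were drawn up, so these counts are not independent evidence.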

How the data were processed

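Polyadenylated RNA was sequenced as strand-specific paired ends. Per the labels and the methods of the study, the authors aligned reads with Bowtie to mm9 and used DESeq2 (versions not given), and they deposited raw counts per gene without normalization. The counting program, its annotation and its use of strand are not given in the sources used here. Of 18669 gene IDs 18594 matched a symbol, and 2855 genes were at 0 in all libraries.

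The 13754 genes that reached 2 counts in 10 or more libraries entered a model in edgeR 4.0.16 (with limma 3.58.1, under R 4.3.3): TMM scaling, 12 group means over all 24 libraries, 12 residual degrees of freedom, quasi-likelihood tests of 14 contrasts, Benjamini-Hochberg correction and a threshold of 0.05. The SE is the absolute log2 fold change divided by the square root of F. CPM per kb used the union of mm9 exons. Transcripts were aligned to mm9 with minimap2 2.31-r1302 to find copies. Similar genes were the 3 with the highest Pearson r of log2(CPM + 0.5). The script was tested on simulated data.

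Groups came from the labels. The p-values rest on a spread between mice of the same group that was estimated over all 12 groups together. Only the fits of the groups compared alone use the spread of those groups by themselves. The libraries of a group differed by far more than sampling noise (chi-square per degree of freedom 19.4 to 110.2). This was 54.3 to 110.2 in the R6/2 groups and 19.4 to 79.1 in the other groups, a difference that a shared spread does not follow. Totals and the resulting floor of 3 counts limit the precision and cover counting error only. All 8 genes are described in every comparison, and from each other list at most 4 called genes with the largest change per comparison are named, except for a few results that are not reported here. Genes and lists were chosen with earlier results of these data known. Alternatives were DESeq2 1.42.0, other scalings and filters, a replicate block, the groups compared alone, control or vehicle mice alone, and leaving out each mouse.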

Additional observations from a re-analysis of the deposited data

Results flagged for a closer look

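In 4 results the response of a gene differed between genotypes by the test of the difference of log2 fold changes itself (edgeR's quasi-likelihood test, 2 mice a group). The HS response of Bag3 was smaller than in wild type mice by a log2 difference of -1.701 in R6/2 mice (adjusted p = 0.00942) and of -1.964 in Hsf1-/- mice (adjusted p = 0.000807). The HSP990 response was smaller in Hsf1-/- than in wild type mice by -3.258 for Hspb1 (adjusted p = 0.0101) and by -2.242 for Bag3 (adjusted p = 8.18e-05). The same wild type mice stand behind the R6/2 and the Hsf1-/- difference for HS. The Hsf1-/- mice were younger than the wild type mice, and for HS they also differed from them in Y-linked transcripts (186 to 229.9 against 0 CPM), so genotype cannot be told apart from age or, for HS, from that difference. The Bag3 call in R6/2 mice was lost with only the groups compared (adjusted p = 0.0990) and without R6/2 control replicate 1 (-1.57), R6/2 HS replicate 1 (-1.73) or wild type control replicate 1 (-1.53). The Hspb1 call was lost with only the groups compared (adjusted p = 0.0599) and without Hsf1-/- HSP990 replicate 1 (-2.86) or wild type vehicle replicate 2 (-2.96).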

How the results depend on the processing

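Of 1428 gene values under alternatives, 1336 kept direction and side of the threshold, 30 lost a call, 17 gained one and 45 turned direction, 0 of these for values called in the reported fit. Bag3 after HS and HSP990 in wild type mice, Hspb1 after HSP990 in wild type mice, both Bag3 differences of Hsf1-/- mice and Hspb6 in untreated R6/2 mice were called under every alternative and without each mouse. The causes of the changes that follow were not tested.

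Counts of called genes, of 7, moved as follows. With only the groups compared they were 4 (wild type HS), 4 (wild type HSP990), 0 (R6/2 HSP990), 0 (HS, R6/2 minus wild type), 2 (HS, Hsf1-/- minus wild type) and 1 (HSP990, Hsf1-/- minus wild type). With DESeq2 they were 3 (wild type HS), 4 (wild type HSP990), 2 (HS, Hsf1-/- minus wild type), 1 (HSP990, R6/2 minus wild type), 3 (HSP990, Hsf1-/- minus wild type), 4 (untreated Hsf1-/-) and 1 (HSP990 minus HS, R6/2). Library size scaling gave 6 in untreated R6/2 mice, and in untreated Hsf1-/- mice vehicle mice alone gave 0 and control mice alone 2, with Hspb3 in place of Hspb6. Leaving out 1 mouse gave 2 to 3 (wild type HSP990, 2 without vehicle replicate 2), 1 to 2 (wild type HS, R6/2 HSP990 and HSP990, Hsf1-/- minus wild type) and 0 to 1 (HS, R6/2 minus wild type, untreated Hsf1-/- and HSP990 minus HS, R6/2). The replicate block left the counts at 2 for wild type HS and 3 for wild type HSP990 and changed no other call. Replicate numbers were not taken as pairs of mice. The deviations of same-numbered mice had r above 0.1 in 12 of 66 pairs of groups and ranged from -0.3846 to 0.3934. This count cannot exclude a pairing or a shared batch within some of the groups.

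Log2 values that turned direction, all uncalled in the reported fit, were Hspb6 after HS in R6/2 mice (0.0008115 with filterByExpr, 0.002448 with only the groups compared), Cryab (0.3923), Hspb3 (0.4025) and Hspb8 (0.5881) in untreated R6/2 mice under library size scaling, where Hspb3 and Hspb8 were called, Hspb8 (0.1633, control mice alone) and Bag3 (-0.07983, vehicle mice alone) there, Hspb3 in untreated Hsf1-/- vehicle mice (0.0457) and Cryab for HSP990 minus HS in wild type mice under library size scaling (0.1227). Without 1 mouse, the ranges were as follows. After HS in R6/2 mice they were -0.269 to 0.2687 for Cryab, -0.4457 to 0.02408 for Hspb3, -0.2388 to 0.2041 for Hspb6 and -1.095 to 0.2134 for Hspb7, and in Hsf1-/- mice -0.2275 to 0.03875 for Hspb3. After HSP990 in wild type mice they were -0.1079 to 0.1318 for Hspb6 and -0.006448 to 0.6994 for Hspb7, and in R6/2 mice -0.4436 to 0.9547 for Cryab. After HSP990 in Hsf1-/- mice they were -0.3329 to 0.5649 for Hspb1, -0.347 to 0.4414 for Cryab, -0.06209 to 0.4835 for Hspb6, -0.1684 to 1.394 for Hspb7, -0.02093 to 0.1601 for Hspb8 and -0.04163 to 0.3071 for Bag3. For differences of responses they were -0.1182 to 0.3516 (Hspb3, HS, R6/2), -0.5423 to 0.03116 (Hspb8, HS, Hsf1-/-), -0.06904 to 0.4793 and -0.4721 to 1.09 (Hspb6 and Hspb7, HSP990, Hsf1-/-). In untreated R6/2 mice the range was -0.1464 to 0.1146 for Hspb8. For HSP990 minus HS they were -0.4247 to 0.2252 (Cryab) and -0.01252 to 0.3599 (Bag3) in wild type mice, and -0.4185 to 0.9799 (Cryab) and -1.137 to 0.1711 (Hspb7) in R6/2 mice. Library size scaling raised the group mean CPM of the 7 genes by 22 to 38% in R6/2 groups and changed those of the other groups by -17.8 to -6.47%.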
